A study of Mus musculus with 25 samples.

Results

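The mitochondrial ribosomal protein genes were taken as the genes whose symbol in the array annotation begins with Mrpl or Mrps followed by a number. They numbered 76 of the 18194 genes that the array measured with a probe set naming a single gene, 47 of them named for the large subunit (Mrpl) and 29 for the small subunit (Mrps). Each gene was represented by its brightest probe set, called the leading one, and the 80 further probe sets of these genes served as a check; 34 members had a single probe set. A probe set is a group of short oligonucleotides on the array that reads one transcript, and its signal is given here on the log2 scale, so that a difference of 1 is a doubling.

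The samples were the CA1 region of the hippocampus of 25 adult female Balb c/J mice, each on an array of its own. The 11 handled mice had been separated from their mother for 15 min a day from postnatal day 1 to 14, and the 14 non-handled mice had not. All had been tested for behaviour at 8 weeks and tissue was taken 2 weeks later. RNA had been extracted with columns in 17 mice (7 handled, 10 non-handled) and with Trizol in 8 mice (4 handled, 4 non-handled). Both groups were of a single inbred strain with no genetic change, and litters were handled as a whole. The mice came from fewer litters than there were mice, so that some shared one, and which did was not given with the labels. Mice were therefore treated as independent, and p-values over mice are too small where litters differ. CA1 is a mixed tissue, and fewer cells of a type and less RNA per cell cannot be told apart in these data.

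Mitochondria keep a ribosome of their own, which translates the few messages of the mitochondrial genome into hydrophobic subunits of the respiratory chain and the ATP synthase. Its RNAs come from the mitochondrial genome, whereas every one of its proteins is encoded in the nucleus, made in the cytosol and imported. Some of these proteins descend from those of the bacterial ribosome, and others were added in mitochondria, which have a ribosome rich in protein. Neurons depend on oxidative phosphorylation for firing and synaptic transmission, and in people inherited defects in several of these proteins cause mitochondrial disease.

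Per-array properties bear on what follows. The median log2 signal over all probe sets was 6.32 to 7.08 in column mice and 6.86 to 7.35 in Trizol mice. Pairs of control probe sets at the ends of Gapdh gave ln 3'/5' ratios of 0.72 to 1.19 with columns and 1.04 to 1.35 with Trizol. Mouse NH162, of the non-handled column group, stood apart in the ratio for Actb, at 2.24 against 1.09 to 1.40 in the other 9 mice of its group, and it also had the highest mean member signal. Without this mouse 11 members were called lower and 2 higher with handling (Mrpl15 lost its call), and 52 higher and 2 lower with columns (Mrpl28 and Mrpl9 lost theirs). The defining markers of CA1 pyramidal cells were bright (Wfs1 averaged a log2 signal of 13.51 and Pou3f1 11.66), and those of oligodendrocytes, astrocytes and microglia averaged 8.34 or more, except Aif1 of microglia at 7.31.

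All 76 leading probe sets lay in the brighter part of the array, with mean log2 signals of 7.50 (Mrps11) to 12.98 (Mrpl39) and a median of 9.91. The dimmest was at percentile 62.4 of all probe sets. For this reason members are set below beside all 18194 genes and beside the 9579 genes at least as bright as the dimmest member. Signals of different probe sets are not comparable as levels of transcript, so no member is ranked against another by brightness.

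The first comparison asks which members differed in adult CA1 after postnatal handling, with the extraction method as a second term of the model. Handled mice had lower signal than non-handled mice for 12 members and higher signal for 2, at an adjusted p under 0.05 in limma. Over all 18194 genes 9.70% were called lower and 4.47% higher, and over the 9579 genes of matching brightness 9.89% were called lower and 8.33% higher. The shares among members were 15.8% lower and 2.63% higher. Before any threshold, 59 of the 76 members were on the lower side in handled mice, with a median log2 difference of -0.12, against a median of 0.00 over the genes of matching brightness and -0.12 over all genes. The median log2 signal of the whole array was also lower in handled than in non-handled column mice (6.32 to 6.58, against 6.57 to 7.08). After quantile normalization the member median was -0.14 and that of all genes -0.01. With arrays set to the same mean and variance these medians were -0.11 and -0.01. The part of the array-wide difference in the calls was not tested. Leaving out mouse H109 alone brought the calls to 9. The 12 falls ran from -0.89 to -0.23, and the 62 members that did not pass lay between -0.38 and 0.38.

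**Figure D1:**
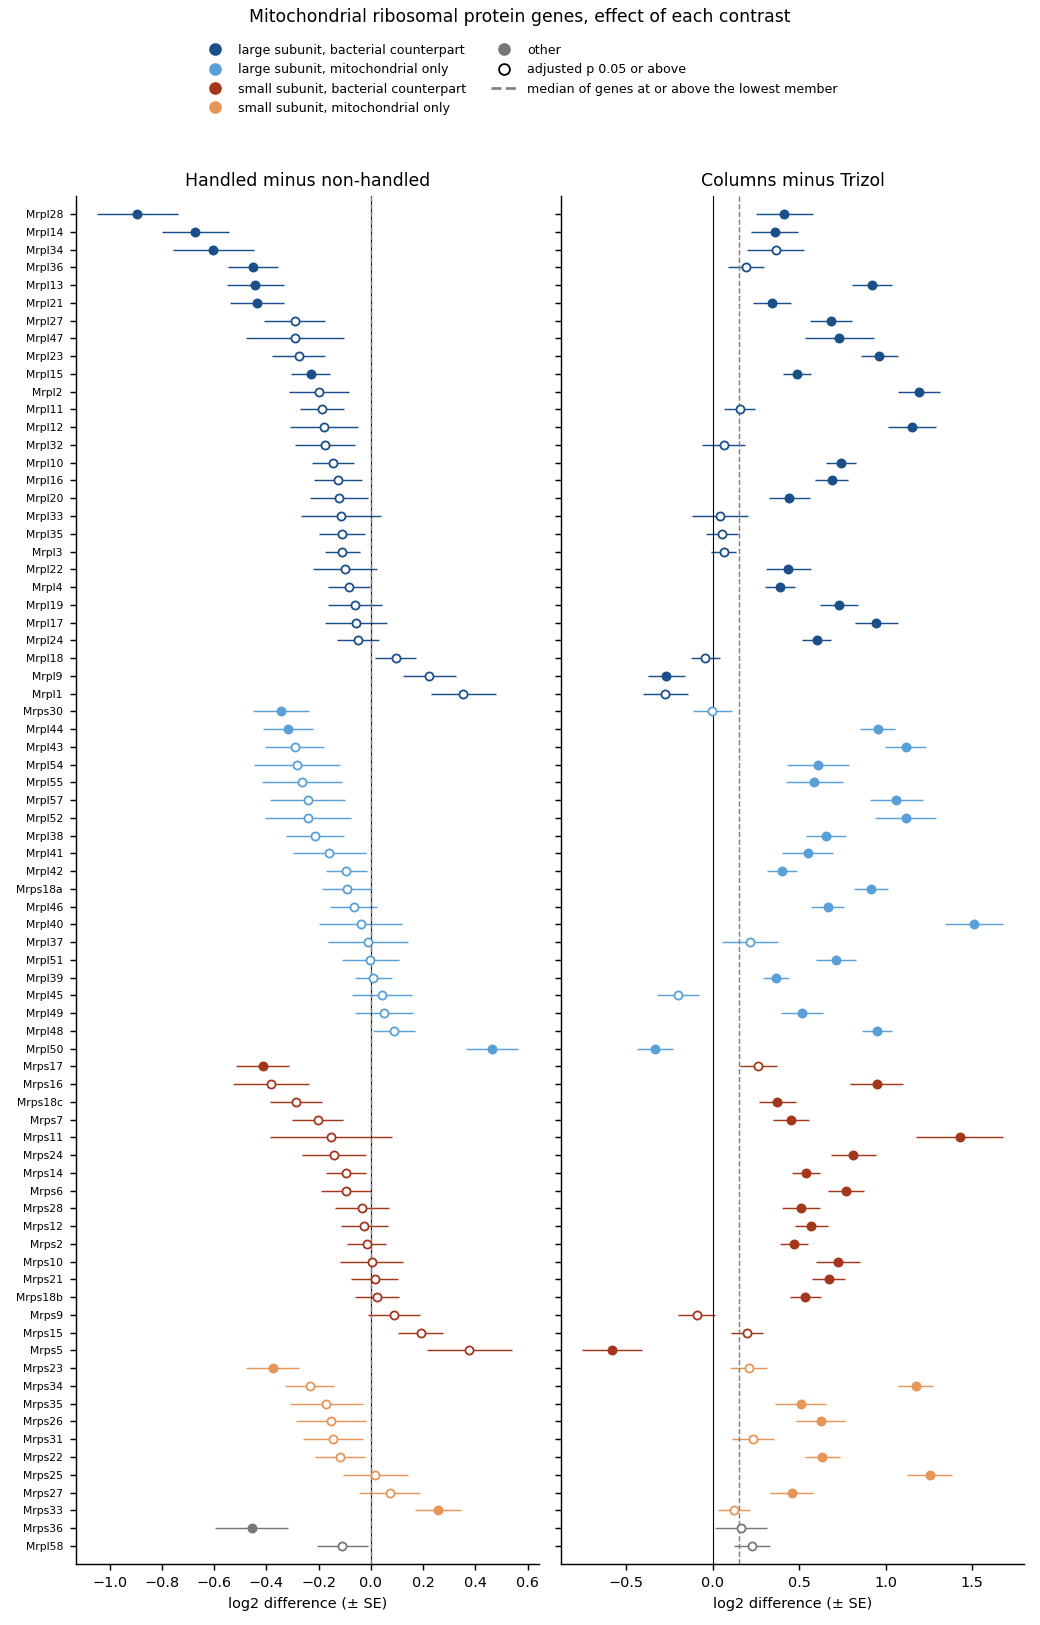
Each of the 76 members (rows) is plotted with its log2 difference and SE, handled minus non-handled on the left and columns minus Trizol on the right. Colours give the subunit and ancestry, filled points passed an adjusted p under 0.05, and the dashed line is the median of the 9579 genes at least as bright as the dimmest member (0.00 on the left, 0.15 on the right). On the left 59 of the 76 points lie below 0, and on the right nearly all lie above 0. Of the 14 called ones on the left, 7 are among the 28 large subunit proteins of bacterial descent.

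By subunit and ancestry, 9 of the 12 falls with handling were of proteins that sit in the large subunit, which holds most members. By name, 17.0% of the 47 Mrpl and 13.8% of the 29 Mrps members were called lower, against 9.89% of the genes of matching brightness. Of the 28 measured large subunit proteins with a bacterial counterpart, 7 were lower and none higher, with a median of -0.16. Among the 20 large subunit proteins found only in mitochondria 2 were lower and 1 higher (median -0.09). The 17 small subunit proteins with a bacterial counterpart gave 1 lower and none higher (median -0.03), and the 9 small subunit proteins found only in mitochondria gave 1 lower and 1 higher (median -0.14). The remaining called member, Mrps36, stands outside these classes, since its product is known as a component of the α-ketoglutarate dehydrogenase complex. Differences between the classes were not tested.

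Mrpl28, a large subunit protein with a bacterial counterpart, showed the largest fall. Its log2 signal was 9.32, 9.72 and 9.96 (lowest, median and highest) in handled column mice, against 10.07, 11.03 and 11.55 in non-handled column mice. With Trizol it was 9.49, 9.80, 10.02 and 10.04 in handled mice, against 9.64, 9.84, 10.22 and 10.29 in non-handled mice. Every handled column mouse was below every non-handled column mouse, whereas the Trizol groups overlapped almost entirely. Over both methods handled mice were at 0.538 times the level of non-handled mice (log2 difference -0.89 ± 0.16, SE, adjusted p = 0.000345). The size depended on the probe set: the leading one belongs to a class whose probes can also match other sequences, and the other probe sets of Mrpl28 gave -0.35 (adjusted p = 0.0492) and -0.15 (adjusted p = 0.529).

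Mrpl14 lies at the face of the large subunit that meets the small one. Its log2 signal was 7.59, 7.78 and 8.25 in handled column mice, against 7.97, 8.69 and 9.11 in non-handled column mice (lowest, median and highest). Trizol mice read 7.28, 7.70, 7.79 and 7.87 when handled, against 7.97, 8.06, 8.09 and 8.41 when non-handled. The Trizol groups did not overlap and the column groups overlapped little. Handled mice were at 0.628 times the non-handled level (log2 difference -0.67 ± 0.13, SE, adjusted p = 0.000972).

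Mrpl36, a small large-subunit protein of bacterial descent, gave a fall of like size with each method. Handled column mice had 8.39, 8.51 and 8.74, against 8.71, 8.84 and 9.32 in non-handled column mice (log2 signal, lowest, median and highest). In Trizol mice the values were 8.04, 8.24, 8.34 and 8.47 after handling, against 8.58, 8.78, 8.90 and 9.02 without it. The Trizol groups were again apart and the column groups shared only a narrow range. The log2 difference was -0.45 ± 0.10 (SE, adjusted p = 0.00281), -0.41 within columns and -0.55 within Trizol.

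Mrpl13, whose bacterial relative assembles early into the large subunit, was lower in handled mice under each method too. Its values were 10.52, 10.64 and 10.85 in handled column mice, against 10.77, 11.09 and 12.27 in non-handled column mice (log2 signal, lowest, median and highest). Handled Trizol mice had 9.80, 9.92, 9.98 and 10.01, against 10.03, 10.10, 10.11 and 10.28 in non-handled Trizol mice. The highest non-handled value was that of mouse NH162, and without that mouse the log2 difference was -0.36 in place of -0.44 ± 0.11 (SE, adjusted p = 0.00886). Both extraction groups kept handled mice at the low end, without overlap in Trizol.

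Mrpl34, another large subunit protein of bacterial descent, fell by 0.60 ± 0.16 on the log2 scale (SE, adjusted p = 0.0113). Its column mice ranged from 7.50 to 8.45 when handled, against 7.82 to 9.24 when non-handled, and its Trizol mice from 7.62 to 8.23, against 7.88 to 8.96. The groups overlapped under both methods. Mrpl44, which has a fold related to RNase III, fell by 0.32 ± 0.09 (adjusted p = 0.0278; 0.26 ± 0.07 and adjusted p = 0.0212 without mouse NH162), Mrpl15 by 0.23 ± 0.07 (adjusted p = 0.0405), and Mrps30, which sits in the large subunit despite its name, by 0.34 ± 0.11 (adjusted p = 0.0320).

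In the small subunit, Mrps17 and Mrps23 were lower in handled mice. Mrps17, a protein of bacterial descent, read 9.71, 9.92 and 10.10 in handled column mice, against 10.12, 10.67 and 10.97 in non-handled column mice (log2 signal, lowest, median and highest). Handled Trizol mice had 9.92, 9.94, 9.96 and 10.20, against 9.88, 9.90, 10.00 and 10.21 in non-handled Trizol mice. Column mice were separated by handling and Trizol mice were not. Its log2 difference was -0.41 ± 0.10 (SE, adjusted p = 0.00814), and that of Mrps23, found only in mitochondria, was -0.38 ± 0.10 (adjusted p = 0.0162). Mrps36 gave -0.46 ± 0.14 (adjusted p = 0.0320), and this call was lost without mouse H109, H117 or H126.

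The members higher in handled mice were Mrpl50 and Mrps33, both added to the ribosome in mitochondria. Mrpl50 had a log2 signal of 9.95, 10.11 and 10.39 in handled column mice, against 9.12, 9.67 and 9.94 in non-handled column mice (lowest, median and highest). Trizol mice gave 10.23, 10.28, 10.37 and 10.58 after handling, against 9.80, 9.94, 10.10 and 10.43 without it. Column groups did not overlap, and a single non-handled Trizol mouse reached the handled range. Mrpl50 was 1.38 times as high in handled mice (log2 difference 0.46 ± 0.10, SE, adjusted p = 0.00281), and its other probe set gave 0.29 (adjusted p = 0.124).

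Mrps33 rose by 0.26 ± 0.09 on the log2 scale (SE, adjusted p = 0.0493). It ranged from 11.99 to 12.73 in handled column mice, against 11.84 to 12.27 in non-handled column mice, and from 11.81 to 12.38 in handled Trizol mice, against 11.69 to 12.27 in non-handled Trizol mice. The groups overlapped under both methods. This call sat at the threshold and was lost in 18 of the 25 fits that each left out 1 mouse. Mrpl1, which in bacteria forms the stalk beside the exit site, had the next smallest p on the higher side without passing (0.35 ± 0.12, adjusted p = 0.0580). The largest log2 difference among the members that did not pass on that side was that of Mrps5 (0.38 ± 0.16, adjusted p = 0.125).

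**Figure D2:**
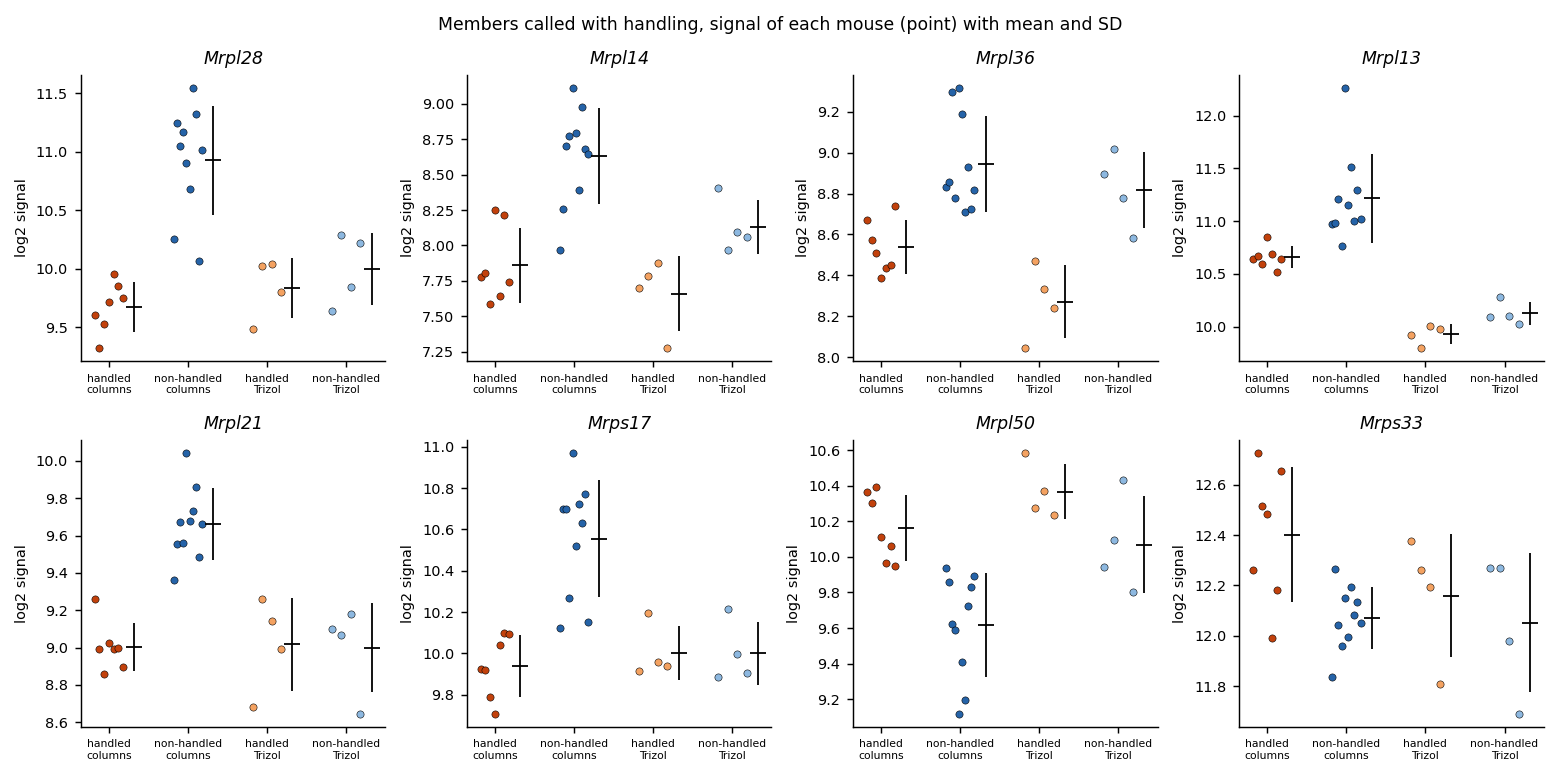
Log2 signal of each mouse (points) for 8 members called with handling, with the mean and SD of each of the 4 groups beside the points (7 handled and 10 non-handled column mice, 4 handled and 4 non-handled Trizol mice). For Mrpl28, Mrpl21 and Mrps17 the handled column mice sit below the non-handled column mice while the Trizol groups coincide, for Mrpl14, Mrpl36 and Mrpl13 handled mice are lower under both methods, and for Mrpl50 handled mice are higher.

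Because extraction and handling were crossed, the handling difference could be read within each method. In the 17 column mice alone 17 members were lower and 3 higher in handled mice (medians: members -0.16, genes of matching brightness 0.01), where 10.0% of the genes of matching brightness were called lower and 10.2% higher. These 20 included all 14 members called over both methods, in a fit that held these 17 mice too. In the 8 Trizol mice no gene of the array was called, and the median member difference was -0.03. An unadjusted p under 0.05 was found there for 1 member and for 538 of the 9579 genes of matching brightness. The median SE of a member was 0.18 in the Trizol mice and 0.12 in the column mice. Of the 14 members called over both methods, 12 had the same sign in each method. Mrpl21 and Mrps17 were the exceptions, at 0.02 and 0.00 with Trizol. These 14 were called in a fit that held the mice of both methods, so the count of like signs is not a separate check.

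Mrpl21, a large subunit protein of bacterial descent, had 8.86, 8.99 and 9.26 in handled column mice, against 9.36, 9.66 and 10.04 in non-handled column mice (log2 signal, lowest, median and highest). Handled Trizol mice had 8.68, 8.99, 9.14 and 9.26, against 8.65, 9.07, 9.10 and 9.18 in non-handled Trizol mice. The column groups were fully apart and the Trizol groups the same in range. Its log2 difference was -0.44 ± 0.10 over both methods (SE, adjusted p = 0.00704).

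Whether the handling difference itself differed between methods was tested as an interaction. No member passed (0.125% of the genes of matching brightness were called as lower with columns and 0.0104% as higher), and the smallest adjusted p was 0.205, for Mrpl28. At an unadjusted p under 0.05 there were 9 of the 76 members, 7 of them with the more negative difference in column mice. At that limit there were also 926 of the 9579 genes of matching brightness and 1431 of all 18194 genes. The differences of differences (columns minus Trizol) were -1.09 ± 0.28 for Mrpl28 (SE, unadjusted p = 0.000401), -0.67 ± 0.19 for Mrpl21 (unadjusted p = 0.00133) and -0.62 ± 0.19 for Mrps17 (unadjusted p = 0.00267). In the other direction Mrps5 had 0.79 ± 0.32 (unadjusted p = 0.0201), Mrps27 0.51 ± 0.24 (unadjusted p = 0.0379) and Mrpl48 0.30 ± 0.17 (unadjusted p = 0.0853).

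Separation of the groups was counted as well. Within columns 3 members (Mrpl21, Mrpl28 and Mrps17) had every handled mouse below every non-handled one, and 1 (Mrpl50) had every handled mouse above, where 2.54% and 1.13% of the genes of matching brightness did so. Within Trizol Mrpl13, Mrpl14 and Mrpl36 had every handled mouse below, and none had every handled mouse above, against 2.78% and 1.11% of those genes. No member was separated by handling over all 25 mice, and 0.219% of those genes were lower in every handled mouse and 0 higher.

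The extraction method moved far more members than handling. RNA from columns gave higher signal than RNA from Trizol for 53 members and lower signal for 3, with handling in the model. Over all 18194 genes 23.7% were called higher and 17.5% lower with columns, and over the genes of matching brightness 41.1% higher and 23.5% lower. Members had a median log2 difference of 0.51, against 0.15 over the genes of matching brightness and -0.02 over all genes. By class, 18 of 28 large subunit and 13 of 17 small subunit proteins of bacterial descent were higher with columns, and 16 of 20 and 6 of 9 of those found only in mitochondria. The lower ones were 1 each of the first 3 of these classes.

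**Figure D3:**
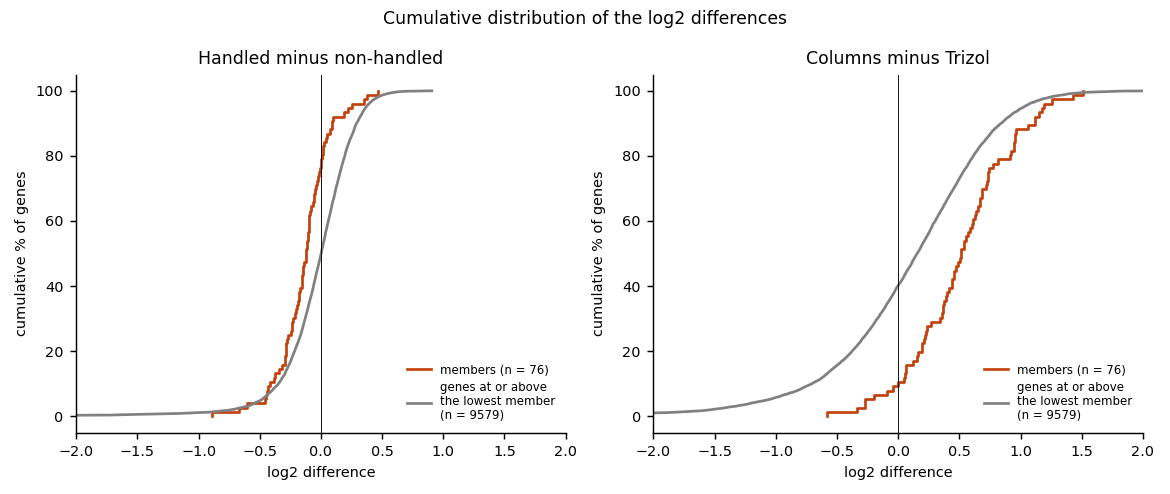
Cumulative percentage of genes (vertical axis) at or below each log2 difference (horizontal axis), for the 76 members and for the 9579 genes at least as bright as the dimmest member, with handled minus non-handled on the left and columns minus Trizol on the right. Members lie slightly to the left of the other genes for handling (medians -0.12 and 0.00) and clearly to the right for extraction (medians 0.51 and 0.15).

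Mrpl40, a protein of the central protuberance, which crowns the large subunit, had the largest rise. Its log2 signal was 8.90, 9.31 and 10.40 in column mice, against 6.94, 7.98 and 8.47 in Trizol mice (lowest, median and highest). The ranges did not meet, and columns gave 2.85 times the Trizol level (log2 difference 1.51 ± 0.17, SE, adjusted p = 4.08e-09). Mrps34, a small subunit protein linked in people to Leigh syndrome, had 10.59, 10.89 and 11.25 with columns, against 9.40, 9.56 and 10.53 with Trizol. It too was separated, at 2.26 times the Trizol level (log2 difference 1.18 ± 0.10, adjusted p = 1.26e-11).

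Among the other members with large rises, Mrps25 gave 1.25 ± 0.13 on the log2 scale, Mrpl2, which lies near the peptidyl transferase centre, 1.19 ± 0.12, Mrpl43 1.12 ± 0.12, Mrpl52 1.12 ± 0.17 and Mrpl57 1.06 ± 0.15. Mrps11, the dimmest member, rose by 1.43 ± 0.25, with column mice at 7.15 to 8.79 and Trizol mice at 4.85 to 7.49. Mrpl23, at the exit of the tunnel through which the new protein leaves, rose by 0.96 ± 0.11. All 7 had an adjusted p of 1.35e-05 or less. Of the 8 measured proteins listed at the tunnel exit 7 were higher with columns, and of the 7 of the central protuberance 5 were. Among all members 69.7% were higher, and among the genes of matching brightness 41.1%, so these counts are not particular to the 2 parts.

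The stalk, which recruits translation factors to the ribosome, is built on Mrpl10 with copies of Mrpl12 and, at its base, Mrpl11. Mrpl12 rose by 1.15 ± 0.14 with columns (SE, adjusted p = 1.64e-08), at 9.74 to 11.01 in column mice and 8.75 to 9.59 in Trizol mice. Mrpl10 rose by 0.75 ± 0.09 (adjusted p = 1.01e-08). Mrpl11 gave 0.16 ± 0.09 (adjusted p = 0.178), with ranges of 10.94 to 11.76 in column mice and 10.90 to 11.53 in Trizol mice. None of the 3 leading probe sets passed with handling, with log2 differences of -0.19 to -0.14. Another probe set of Mrpl11 was called lower with handling (-0.79). With columns, further probe sets of Mrpl11 were called higher (0.32) and lower (-1.45).

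The 3 Mrps18 paralogs share a bacterial ancestor but occupy different places, Mrps18a in the large subunit and Mrps18b and Mrps18c in the small one. With columns Mrps18a rose by 0.91 ± 0.10 on the log2 scale (SE, adjusted p = 1.78e-09), Mrps18b by 0.54 ± 0.09 (adjusted p = 8.76e-06) and Mrps18c by 0.37 ± 0.11 (adjusted p = 0.00424). With handling none passed: Mrps18a gave -0.09 ± 0.09, Mrps18b 0.02 ± 0.09 and Mrps18c -0.29 ± 0.10 (adjusted p = 0.0564). Probes of related genes can share sequence, and cross-reaction between them was not tested.

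The 3 members lower with columns were Mrps5, Mrpl50 and Mrpl9. Mrps5, whose bacterial relative lies where the messenger RNA enters the small subunit, had 7.59, 8.67 and 9.77 in column mice, against 8.89, 9.32 and 9.47 in Trizol mice (log2 signal, lowest, median and highest). Trizol mice were tightly placed inside the wider range of column mice, and the log2 difference was -0.58 ± 0.17 (SE, adjusted p = 0.00651). Mrpl50 gave -0.33 ± 0.11 (adjusted p = 0.0101), although its other probe set was higher with columns (0.39, adjusted p = 0.0168). Mrpl9 gave -0.27 ± 0.11 (adjusted p = 0.0453), a call lost in 16 of the 25 fits that each left out 1 mouse.

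In 20 members every column mouse was above every Trizol mouse, and in none was every column mouse below, where 9.75% and 7.69% of the genes of matching brightness behaved so. Within handled mice alone 43 members were higher and none lower with columns (36.3% and 19.2% of the genes of matching brightness), and within non-handled mice alone 47 were higher and 2 lower (29.9% and 18.7%). There were 39 members called higher in both. Of the 56 members called over all mice, 54 had the same sign in handled and in non-handled mice, and Mrpl28 and Mrpl21 did not, at -0.16 and -0.01 in handled mice. The fit that called these 56 held both groups, so this count is not a separate check.

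The summed signal of the 76 leading probe sets gives the same contrast in each mouse. It was 0.263% to 0.395% of the signal of the array in column mice, against 0.218% to 0.250% in Trizol mice, with no overlap. Among column mice it was 0.263% to 0.315% in handled mice and 0.279% to 0.395% in non-handled mice, and among Trizol mice 0.218% to 0.239% and 0.219% to 0.250%. The highest share belonged to mouse NH162, and without it non-handled column mice reached 0.347%. Markers of cell types moved with the extraction method as well: 5 of 5 CA1 pyramidal, 5 of 5 oligodendrocyte, 6 of 6 astrocyte and 5 of 6 microglial markers were called higher with columns, and 1 of 5 endothelial, 1 of 6 dentate gyrus and CA3 and 0 of 4 choroid plexus markers, while 1 dentate gyrus marker (Prox1) was lower. Over the genes of matching brightness 41.1% were called higher with columns and 23.5% lower. Prox1, Dsp, C1ql2, Tdo2, Folr1, Kcnj13, Ttr, Cdh5 and Pecam1 had mean log2 signals under 7. At that brightness 2.61% of all probe sets were called higher and 20.5% lower. The summed signal of the microglial markers was 24865 to 37435 in column mice and 13168 to 17340 in Trizol mice, and that of the CA1 pyramidal markers 20083 to 38588 and 16839 to 25699. Their part in the member differences was not tested.

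**Figure D4:**
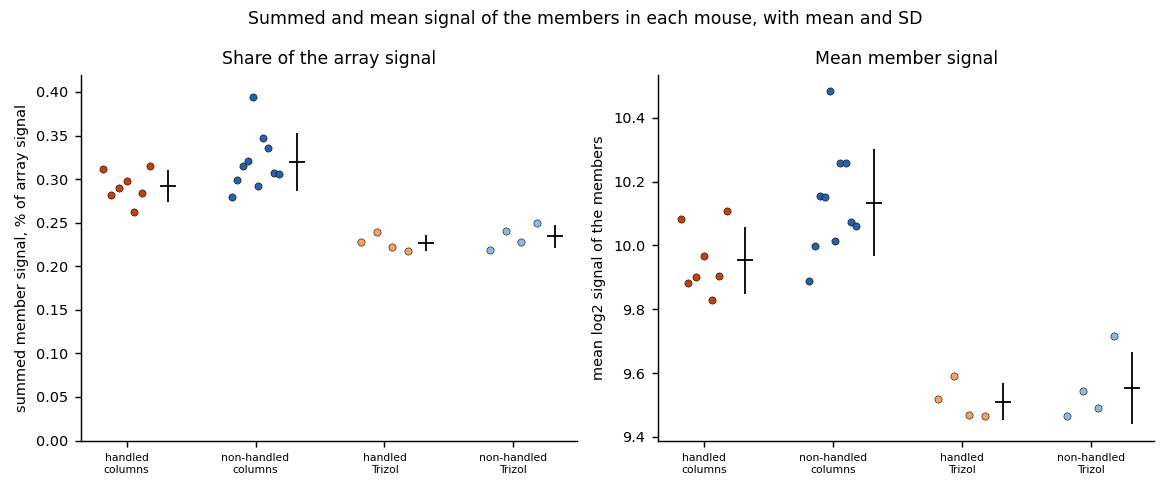
Summed signal of the 76 leading probe sets as a percentage of the array signal (left) and their mean log2 signal (right) in each mouse (points), with the mean and SD of each of the 4 groups. Column mice lie above Trizol mice, from 0.263% against at most 0.250% on the left, and handled and non-handled mice overlap within each method.

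Fewer markers passed with handling. None of the 5 CA1 pyramidal, 5 oligodendrocyte or 6 dentate gyrus and CA3 markers passed, 1 of 6 astrocyte (Aqp4, 0.32) and 1 of 6 microglial markers (P2ry12, 0.24) were higher in handled mice, and 1 of 5 endothelial (Cldn5, -0.49) and 1 of 4 choroid plexus markers (Folr1, -0.86) were lower. Median log2 differences were -0.48 over the endothelial markers (4 of 5 below 0) and -0.42 over the choroid plexus markers (4 of 4 below 0), and between -0.12 and 0.04 over the other lists. Folr1, Kcnj13, Ttr, Cdh5 and Pecam1 had mean log2 signals under 7, whereas Cldn5, Flt1 and Kl were brighter. The median over all 25295 probe sets under 7 was -0.38, with 19072 below 0. Over the genes of matching brightness 8.33% were called higher and 9.89% lower. The summed endothelial signal was 1410 to 3154 in handled mice and 1626 to 3639 in non-handled mice. The part of these cells in the member differences was not tested.

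Dimmer probe sets of the same genes often went the other way with extraction. In 11 members (Mrpl11, Mrpl13, Mrpl15, Mrpl21, Mrpl38, Mrpl41, Mrpl50, Mrps10, Mrps11, Mrps15 and Mrps21) at least 1 probe set was called higher with columns and at least 1 lower. For Mrps11 the leading probe set rose by 1.43 and the other, at a mean log2 signal of 5.38, fell by 2.85 ± 0.48 (SE, adjusted p = 6.69e-06). That dimmer probe set read 2.55 to 6.91 in column mice and 5.58 to 7.99 in Trizol mice. For Mrpl15, which has 8 probe sets, 4 rose (0.44 to 1.07) and 1, at a mean of 6.28, fell by 2.37 ± 0.40 (adjusted p = 7.72e-06). Mrps15 and Mrpl13 had such a probe set too, with falls of 2.29 and 2.24, at means of 6.64 and 5.47.

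Brightness went with this split. Of the 34 member probe sets that were not leading and had a mean log2 signal under 7, 8 were called lower with columns and 2 higher, close to the 20.5% and 2.61% of all 25295 probe sets under 7. Of the 46 that were not leading but at 7 or above, 22 were higher and 5 lower, against 34.3% and 26.9% of all 19742 probe sets at 7 or above. With handling no member had probe sets called in both directions. Of the 20 further probe sets of the 12 members called lower, 18 were on the lower side and 2 passed (Mrpl28 and Mrpl15), where 7.93% of all probe sets were called lower and 3.58% higher. Among all 80 member probe sets that were not leading, 61 were on the lower side.

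**Figure D5:**
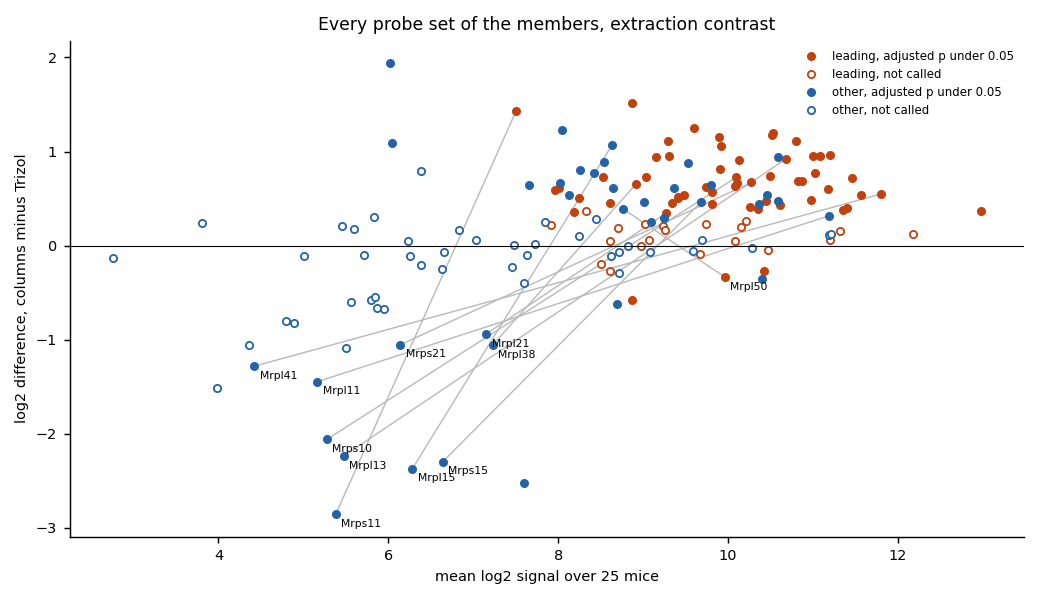
Log2 difference between columns and Trizol (vertical axis) against mean log2 signal over 25 mice (horizontal axis) for every member probe set, with leading ones in orange, others in blue, and those with an adjusted p under 0.05 filled. Grey lines join the highest and the lowest called probe set of the 11 members called in both directions, and the falls beyond 1 all belong to probe sets that were not leading and had mean signals under 8.

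Promoters of the members were read next, because the nuclear factors NRF1 and GABP are known regulators of genes for mitochondrial proteins. RefSeq promoter windows (GRCm38.p6, 250 bases before to 50 after the start) were matched for 67 of the 76 members, on 16 chromosomes. The letters searched on both strands were CCGGAAG (the core bound by GABP and other ETS factors), the NRF1 palindrome (GCGC, AT and GCGC in 1 run), the YY1 element (AAGATGG and then CGGC) and CACGTG (the E-box). CCGGAAG was in 25 of 67 members (37.3%), against 15.0% of the 14368 measured genes with a window and 9.93% of all 27025 genes. The NRF1 palindrome was in 3 (4.48%, against 1.75% of measured genes), the YY1 element in 5 (7.46%, against 1.26%) and CACGTG in 5 (7.46%, against 10.3%). Median GC content was 58.0% in members and 58.7% in measured genes. A match is a string of letters only, and binding was not measured.

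The 100 bases before the start are shown for 5 members to place these letters beside the values above, with matches in capitals. Mrpl34 (chr8:71464826-71464925, plus strand) fell with handling and has CCGGAAG 37 bases before the start. Mrpl36 (chr13:73330909-73331008, plus strand) fell with handling and has CACGTG. Mrpl43 (chr19:45006443-45006542, minus strand), with CCGGAAG at 2 places, and Mrps18a (chr17:46110904-46111003, plus strand), with 1, rose with columns. Mrpl9 (chr3:94443236-94443335, plus strand) was lower with columns and has the NRF1 palindrome. Of the other members with the palindrome, Mrpl39 was higher with columns and Mrpl32 was not called. Of the members with CACGTG, Mrpl36 alone was called with handling, and Mrpl2, Mrpl20, Mrpl37 and Mrps18c were not.
Mrpl34: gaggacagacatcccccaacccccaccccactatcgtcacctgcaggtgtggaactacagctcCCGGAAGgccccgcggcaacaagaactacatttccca
Mrpl36: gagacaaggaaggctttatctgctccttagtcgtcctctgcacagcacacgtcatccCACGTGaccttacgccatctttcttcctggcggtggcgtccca
Mrpl43: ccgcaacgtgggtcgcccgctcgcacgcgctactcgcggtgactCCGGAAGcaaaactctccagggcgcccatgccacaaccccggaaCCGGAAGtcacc
Mrps18a: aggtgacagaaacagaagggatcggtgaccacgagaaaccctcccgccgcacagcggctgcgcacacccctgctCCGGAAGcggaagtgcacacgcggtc
Mrpl9: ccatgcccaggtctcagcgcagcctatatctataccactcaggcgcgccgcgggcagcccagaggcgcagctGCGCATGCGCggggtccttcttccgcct

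CCGGAAG was then counted in the members that changed and in the others, and no difference between them was tested. It was in 4 of 12 called members with a window for handling (Mrpl21, Mrpl34, Mrps23 and Mrps33) and in 21 of the 55 others. For extraction it was in 18 of 44 members called higher with columns and in 7 of the 23 others. Median log2 differences were -0.11 with and -0.12 without it for handling, and 0.57 and 0.45 for extraction.

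Mouse to mouse, once the group means were taken out, members had residual SDs of 0.14 (Mrpl3) to 0.63 (Mrps11) on the log2 scale, with a median of 0.26, against 0.27 over the genes of matching brightness. As a description over the 25 arrays, which share their scaling, the mean correlation of residuals between members was 0.19 over 2850 pairs, against 0.01 over the genes of matching brightness, 0.56 over 49 cytosolic ribosomal protein genes and 0.34 over 82 nuclear genes of the respiratory chain. The closest pair was Mrpl23 and Mrpl57 (r = 0.92). The most opposed was Mrpl50 and Mrpl44 (r = -0.80). Mouse NH162 was extreme in these genes, and residuals of a fit without it gave 0.86 and -0.77 for these pairs, which stayed the closest and the most opposed, and a mean of 0.16 over members, 0.50 over cytosolic ribosomal protein genes and 0.30 over respiratory chain genes. Mrpl1, Mrpl50, Mrps5 and Mrpl9 had the lowest mean correlation with the other members (-0.29, -0.28, -0.26 and -0.20; without mouse NH162 -0.22, -0.19, -0.17 and -0.11), and each of these had a handling difference above 0 and an extraction difference below 0. The mean residual of the members was highest in non-handled mouse NH162, at 0.37, and lay between -0.23 and 0.14 in the other mice.

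Other genes needed for mitochondrial translation were taken from lists of factors that act with the ribosome. Of the 5 measured ribosomal proteins under other symbols, Ptcd3 was higher in handled mice (0.28 ± 0.09, SE, adjusted p = 0.0454) and none was lower. With columns 3 were higher (Chchd1, 0.78; Dap3, 0.50; Gadd45gip1, 1.68), and Ptcd3 was lower (-0.61). Of 24 assembly factors, the GTPase Gtpbp10 was higher in handled mice (0.49 ± 0.13, adjusted p = 0.0118) and Rbfa, which matures the small subunit, lower (-0.43 ± 0.12, adjusted p = 0.0140). With columns 9 of the 24 were higher and 3 lower. Over all 18194 genes 4.47% were called higher and 9.70% lower with handling, and 23.7% and 17.5% with columns. Over the genes of matching brightness these shares were 8.33%, 9.89%, 41.1% and 23.5%.

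Translation factors were split with handling, 2 of 13 higher and 2 lower (15.4% each, against 4.47% and 9.70% of all genes). The difference from all genes was not tested. The initiation factor Mtif2 was higher in handled mice (0.56 ± 0.10, SE, adjusted p = 0.000481), as was Guf1, a relative of the bacterial back-translocase (0.49 ± 0.14, adjusted p = 0.0240). The elongation factor Tufm was at 8.44, 8.64 and 9.12 in handled column mice, against 9.86, 10.41 and 10.84 in non-handled column mice (log2 signal, lowest, median and highest). These groups were apart, and over both methods the difference was -1.43 ± 0.25 (adjusted p = 0.000371). The initiation factor Mtif3 was lower by 0.42 ± 0.12 (adjusted p = 0.0243).

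Of 16 mitochondrial tRNA synthetases only Sars2 passed with handling (6.25% lower, against 9.70% of all genes). Its column mice had 4.11, 6.30 and 6.81 when handled, against 6.99, 8.59 and 9.78 when non-handled, and the log2 difference over both methods was -2.01 ± 0.32 (SE, adjusted p = 9.11e-05). Sars2 is the neighbour of Mrps12 in the RefSeq annotation, and Mrps12 gave -0.02 ± 0.09. Among 8 genes of mitochondrial DNA transcription, the RNA polymerase Polrmt was lower in handled mice (-0.90 ± 0.22, adjusted p = 0.00788). A list of 10 genes held regulators of mitochondrial genes and also Clpp, a subunit of the matrix protease. Only Clpp of that list passed with handling, and it was lower (-0.32 ± 0.10, adjusted p = 0.0384). The coactivator Ppargc1a and the factors Nrf1, Gabpa and Esrra did not pass with handling. With columns Nrf1 (-2.46), Gabpa (-0.88) and Ppargc1a (-0.50) were lower and Esrra (0.81) and Clpp (1.14) higher. Genes of all these lists were read by their leading probe set alone.

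The sets nearest in kind moved in the same direction with extraction. Of 49 cytosolic ribosomal protein genes 42 were higher and 2 lower with columns (median 0.72), and of 82 nuclear genes of the respiratory chain 63 were higher and 2 lower (median 0.64). Over the genes of matching brightness 41.1% were higher and 23.5% lower. With handling 9.89% of the genes of matching brightness were lower and 8.33% higher. In the same contrast 3 cytosolic ribosomal protein genes were lower and 1 higher (median -0.15), and 5 respiratory chain genes lower and none higher (median -0.12). Members were called lower with handling at 15.8%, against 6.12% and 6.10% in these sets, and this difference was not tested. A lean to the lower side was shared: 41 of the 49 cytosolic ribosomal protein genes and 70 of the 82 respiratory chain genes were below 0, as were 59 of the 76 members.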

How the data were processed

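CA1 RNA of 11 handled and 14 non-handled mice was measured on 25 Affymetrix mouse genome arrays. The authors deposited linear intensity values per probe set, made by Expression Console (Affymetrix) under MAS 5.0, which scales each array as a whole and leaves low signals unsmoothed. The number of arrays limits the precision. The extraction method of each mouse was read from the list given with the labels.

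Here the deposited intensity values were put on a log2 scale without further normalization. Of 45101 probe sets, 64 controls were left out and 45037 tested with limma 3.58.1 (R 4.3.3; trended prior; terms for handling and extraction; Benjamini-Hochberg adjustment over all 45037). Interaction and within-group fits were made alike. Names came from the platform annotation; 4 probe sets naming a member and another gene were left out, and with them Mrpl30 and Mrpl53. Updated symbols gave the same 76 members. Handling differences were simulated in the brighter 50% of probe sets only, with independent noise and no extraction or litter difference. Over 45037 such simulated probe sets the fit found 44 of 100 changes of 0.5 and 87 of 100 of 1.0 on the log2 scale. Of 137 calls 6 were false. Recovery among dimmer probe sets or with shared litters was not simulated. Promoters were RefSeq's (GRCm38.p6).

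Genes were named by rule: per contrast, called members up to the 10 largest rises and 10 largest falls (with fewer than 3 called, the 3 smallest p), the stalk, the Mrps18 paralogs, members with probe sets called both ways, and called pathway genes; Mrpl44 was added after its values were seen. The members and lists were chosen with earlier results of these data known. Alternatives covered scaling, an offset of 32, the prior, array weights, RNA quality covariates, dim probe sets, each mouse left out, other probe sets, the extraction term and the promoter window. Fits and correlations without mouse NH162, counts of separated groups and the measured-gene background for promoters were added after the data were seen.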

Additional observations from a re-analysis of the deposited data

Results flagged for a closer look

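In each of the 4 groups of mice, the highest or lowest value was compared with the rest by Dixon's gap test for the 38 named members and for array measures; 13 of 168 such groups gave a value past the 95% limit, where chance gives about 1 in 20. Mouse NH162 (non-handled, columns) accounted for 6 of them. It was the highest of its group for Mrps36 at 10.41 (others 9.12 to 9.79), for Mrpl13 at 12.27 (others 10.77 to 11.51) and for Mrpl41 at 13.36 (others 11.62 to 12.48), and the lowest for Mrpl10 at 10.44 (others 10.75 to 10.97). The ln 3'/5' ratios of the same mouse were the highest of its group for Actb at 2.24 (others 1.09 to 1.40) and Gapdh at 1.19 (others 0.72 to 0.94).

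The other 7 values were spread over 5 mice. Mouse H108 (handled, columns) was the highest of its group for Mrpl21 at 9.26 (others 8.86 to 9.03) and for Mrps27 at 9.27 (others 8.80 to 8.90). Mouse H109 of the same group was the lowest for Mrpl15 at 10.65 (others 10.92 to 11.07). Among handled Trizol mice, mouse H126 was the lowest for Mrps36 at 8.08 (others 9.17 to 9.30) and the highest for Mrps17 at 10.20 (others 9.92 to 9.96), and mouse H113 was the lowest for Mrpl15 at 10.40 (others 10.67 to 10.71). Mouse NH138 (non-handled, Trizol) was the lowest for Mrpl52 at 9.51 (others 10.20 to 10.29).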

How the results depend on the processing

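Of the members called with handling, 14 by the model as described, the count was 8 without the extraction term, 0 in Trizol mice alone, 5 over the 42 second brightest probe sets, 22 over all member probe sets and 4 by separation of the groups in column mice. With each mouse left out it ran from 9 (without mouse H109) to 17, and in column mice without mouse NH162 it was 19. Under the other settings it was 10 to 20. Leaving out 1 mouse lost the calls of Mrps33 (18 of 25 fits), Mrpl15 (11), Mrps30 (7) and Mrps36 (3) for handling, and of Mrpl9 (16), Mrpl28 (14), Mrpl14 (7) and Mrpl21 (1) for extraction. In Trizol mice alone Mrpl21 gave 0.018 and Mrps17 0.0019 for handling, and in handled mice alone Mrpl28 gave -0.16 and Mrpl21 -0.014 for extraction, so these changed sign. The cause was not tested.

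For extraction, 56 members were called, 52 to 58 with each mouse left out and 43 to 62 under the other fits, against 93 over all member probe sets and 24 over the second brightest. Its median of 0.51 was 0.65 after quantile normalization, 0.67 with arrays set to the same mean and variance and 0.65 with RNA quality covariates. Both scalings moved the median of all genes, for extraction from -0.02 to 0.26 in each and for handling from -0.12 to -0.01. Relative to all genes the member median was 0.53 for extraction (0.39 and 0.41 under these scalings) and 0.00 for handling (-0.12 and -0.10). With equal mean and variance no member was called lower with columns. The share of members with CCGGAAG was 20.9% in the 100 bases before the start, and that with the YY1 element was 0%, in place of 37.3% and 7.46%. No member was called for the interaction under any alternative run. No paired analysis was possible because mouse numbers are not shared between the groups. Arrays bound precision through signal over background, and dim probe sets carried the largest errors.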

Other observations

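Beyond the leading probe sets, 6 other probe sets passed with handling in members whose leading one did not. In all, 7 of the 80 further member probe sets were called lower with handling and 1 higher (8.75% and 1.25%), near the 7.93% and 3.58% of all probe sets. Mrpl11 gave -0.79 (adjusted p = 2.25e-05), Mrpl48 -0.34 (adjusted p = 0.00401), Mrpl41 -0.36 (adjusted p = 0.0271), Mrpl42 -1.92 (adjusted p = 0.0237), Mrpl1 -1.77 (adjusted p = 0.0252) and Mrps14 0.64 (adjusted p = 0.000954), on the log2 scale in limma. Those of Mrpl42 and Mrpl1 were dim, with mean log2 signals of 4.79 and 4.36, and that of Mrpl1 was opposite in sign to the leading probe set (0.35). The leading probe set of Mrpl48 gave 0.09 and that of Mrps14 -0.10, also of the opposite sign, and that of Mrpl11 gave -0.19. With extraction the largest fall without a called leading probe set was that of Mrps9, at -2.52 (adjusted p = 2.53e-09), while its leading probe set gave -0.09. This probe set read 4.53 to 7.90 in column mice and 8.92 to 9.73 in Trizol mice, with no overlap.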
